A study of Mus musculus with 30 samples.

Results

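The sites described here are the 1231 genomic intervals that the authors listed as differing between mouse tail tendon fibroblasts given blebbistatin and fibroblasts without it, both in the absence of doxycycline. They are every row with a chromosome in the authors' deposited table of that comparison, out of 16367 rows in the 5 deposited site tables. About 68975 intervals were tested, a number worked out from the ratio of adjusted to raw p, and 1.78% of them are in the table. The table holds a signal level for each group on the log2 scale, the difference between the groups, a p-value, a false discovery rate (FDR), and the gene feature and gene nearest to each interval.

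The cells were primary fibroblasts from tail tendon, labelled wildtype. They were grown in medium with 10% serum and treated in medium with 0.1% serum. The control group had 3 libraries, which the labels call treated with DMSO, the solvent, with neither blebbistatin nor doxycycline. The treated group had 3 libraries given 10 µM blebbistatin and no doxycycline. A further pair of groups of 3 libraries each received 10 ng/mL doxycycline, with or without the same dose of blebbistatin. What doxycycline switched on in these cells is not given in the sources used here. All these libraries were made from genomic DNA. The only genomic DNA protocol in the labels is ATAC, in which an enzyme inserts adapters into open chromatin, and the labels of these libraries do not name the assay. A separate set of libraries, named ATAC in the labels, compared DMSO with 10 µM blebbistatin and with 30 µM Y27632, and a set of RNA libraries covered the same treatments. No label says that the replicates came from separate animals or cultures, so errors here measure the spread between libraries.

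Blebbistatin blocks non-muscle myosin II, the motor that pulls on actin filaments, and so lowers the tension a fibroblast makes. Y27632 inhibits a kinase that activates that motor. Tension is one of the inputs that keep the coactivators Yap and Taz in the nucleus, where they bind TEAD transcription factors. TEAD proteins recognise DNA with the core letters GGAATG, and many of the sites they occupy are enhancers far from genes. Free actin controls another coactivator, MRTF, which works with serum response factor (SRF) at a motif called the CArG box. Tendon fibroblasts make and remodel the collagen matrix that carries load, and both routes are known to control genes of the cytoskeleton and matrix.

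The authors deposited HOMER matches to a TEAD motif with the ATAC table of blebbistatin against DMSO, and these give sequence for the listed sites that overlap that table. The matches below were picked from listed sites with large decreases, near well-known Yap targets, or at the Hippo pathway gene Amot. All of them hold the full GGAATG. Many other matches do not, and some strong sites, such as that of Cald1, had no match, as counted further below. Each match shown is written 5′ to 3′ on the strand of the motif, with the core letters in capitals. Coordinates are those of the listed site in mm10, and the match was read in the overlapping ATAC site, whose ends differ from it.
Dpp4 intron, chr2:62379271-62379426: aGGAATGtct
Cavin2, chr1:51143663-51144020: tGGAATGttc
Noct, chr3:51220954-51221113, first match: aGGAATGtgt
Noct, chr3:51220954-51221113, other strand: tGGAATGtac
Col5a2, chr1:45580410-45580841, first match: aGGAATGtga
Col5a2, chr1:45580410-45580841, other match: aGGAATGtca
Thbs1, chr2:118127383-118128711: aGGAATGcac
Ccn1, chr3:145702921-145703062: tGGAATGcag
Amot, chrX:145468738-145469027: tGGAATGctt

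Promoters were rare among the listed sites, and 5 of the 13 promoter sites matched a promoter window of RefSeq (GRCm38.p6, the mm10 assembly). The 250 bases before the start are shown for 3 of them, chosen because they hold letters of the motifs searched. Capitals mark a CArG box in Lurap1l and Fhl1, and GGAATG or its reverse complement CATTCC in Radil.
Lurap1l promoter, chr4:80910436-80910685, plus strand: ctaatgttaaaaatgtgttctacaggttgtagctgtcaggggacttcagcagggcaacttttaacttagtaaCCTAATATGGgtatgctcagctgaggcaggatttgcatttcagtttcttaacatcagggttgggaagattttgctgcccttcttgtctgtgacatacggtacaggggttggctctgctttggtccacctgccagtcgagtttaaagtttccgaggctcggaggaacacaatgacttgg
Fhl1 promoter, chrX:56779433-56779682, plus strand: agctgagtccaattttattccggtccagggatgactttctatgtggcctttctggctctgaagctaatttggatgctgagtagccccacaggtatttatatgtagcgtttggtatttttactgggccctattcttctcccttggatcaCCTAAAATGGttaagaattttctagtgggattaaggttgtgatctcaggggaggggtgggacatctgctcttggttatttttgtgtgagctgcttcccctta
Radil promoter, chr5:142545028-142545277, minus strand: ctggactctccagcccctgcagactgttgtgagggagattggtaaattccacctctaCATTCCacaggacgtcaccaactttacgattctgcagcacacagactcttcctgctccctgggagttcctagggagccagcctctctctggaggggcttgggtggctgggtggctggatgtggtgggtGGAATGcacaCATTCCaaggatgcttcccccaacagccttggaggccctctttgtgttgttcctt

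Over all 32851 promoter windows of 300 bases in that RefSeq table, read on both strands, 14.7% held GGAATG, 5.20% held the AP-1 letters TGACTCA and 1.63% held a CArG box. Of the 5 windows matched to a listed promoter site, 2 held GGAATG, 2 held a CArG box and 0 held TGACTCA. These 5 windows are too few to compare with the shares of all windows. The other promoter sites, that of Tagln among them, had no matched window in the RefSeq table used, and their letters were not searched. A match describes letters and does not show that a factor bound.

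Blebbistatin went with lower signal at nearly every listed site. The level was lower at 1219 sites (1.77% of those tested) and higher at 12 (0.0174%). In the authors' deposited table the median log2 level of lower sites was 6.13 without the drug and 4.94 with it. The median log2 difference was -1.18, which leaves 44.1% of the signal. The table gives group means and no value for single libraries, so no error between libraries can be printed for a site. The differences, p-values and FDRs of sites are the authors' own throughout.

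The decreases filled a narrow range. The log2 differences of lower sites ran from -2.67 to -1. They reached at least 1.25 at 455 lower sites (37.3%), at least 1.5 at 141 (11.6%) and at least 2 at 5 (0.410%). No listed site had an absolute difference under 1, and the largest FDR was 0.0498, so the table was selected on both. The last rank in the table was 2164, so at least 3.14% of the tested sites lay within the FDR threshold, and 933 ranks before it are not in the table and were not analysed here. Just inside the fold threshold, 41 lower sites stood at -1 at the precision of the table, with FDRs from 0.000467 to 0.0493, and those with the largest p were annotated to Esr1, Satb1, Mab21l3, A730020E08Rik and Eef1a1.

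Sites with more signal in the control cells were wider and had smaller FDRs, while the size of the decrease was similar. The 412 lower sites with the least control signal had a median difference of -1.24, a median width of 172 bp and a median FDR of 0.0194. The 407 with the most had -1.15, 390 bp and 0.000696. These medians describe sites that had already passed the fold and FDR thresholds.

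**Figure D1:**
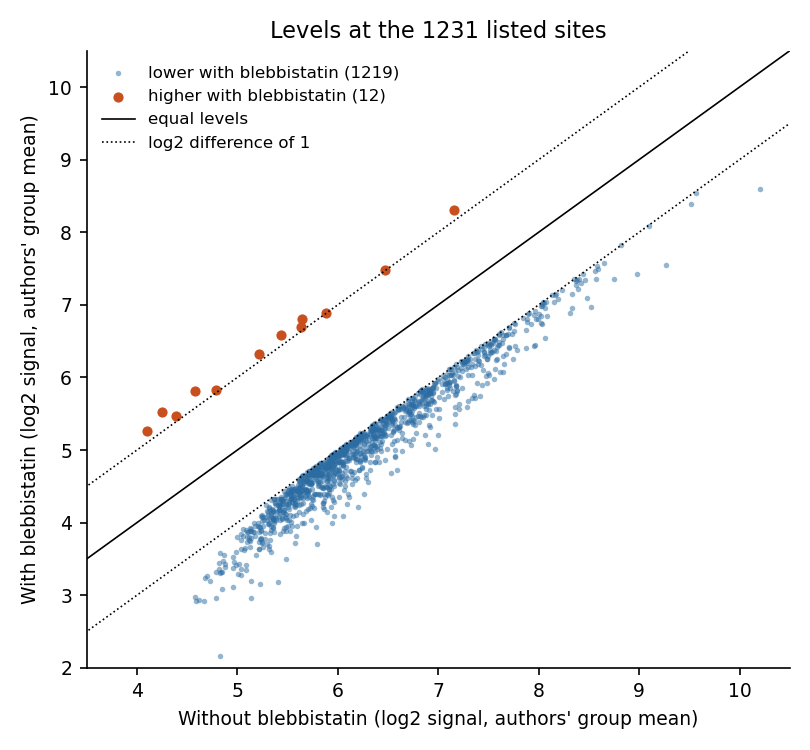
Authors' group mean signal (log2) at each of the 1231 listed sites, without blebbistatin on the x axis and with blebbistatin on the y axis. Each point is a site. The 1219 lower sites form a band just under the dotted line of a log2 difference of 1, and the 12 higher sites lie above the other dotted line.

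The listed sites lay far from transcription starts. Intergenic sites made up 647 of 1231 (52.6%) and introns 530 (43.1%), with 153 of the intron sites in the first intron. Promoters held 13 sites (1.06%, 95% Wilson interval 0.618 to 1.80, which covers counting error only), transcript ends 20 (1.62%), exons 7, 3′ UTRs 9 and exons of non-coding transcripts 5. The median distance to the nearest start was 44760 bp. Within 1 kb of a start lay 22 sites (1.79%), within 10 kb 206 (16.7%) and within 100 kb 892 (72.5%), while 34 (2.76%) lay beyond 500 kb. The share at promoters was 0.825% in the ATAC table of blebbistatin, 1.78% in the table of blebbistatin with doxycycline and 18.7% in the table of doxycycline alone. The authors' annotation put 125 sites (10.2%) in LTR repeats, remnants of endogenous retroviruses, beside 10.1% of the ATAC blebbistatin sites.

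The largest decrease was in an intergenic site far upstream of Nmur2, the gene of a neuromedin receptor, where the log2 level was 4.83 without the drug and 2.16 with it (-2.67, FDR 0.000252). That is 15.7% of the control signal. An intron site of Dpp4, a cell surface peptidase found on some fibroblasts, went from 5.4 to 3.18 (-2.21, FDR 0.000142). A site upstream of Eya4, a transcriptional coactivator of the Eyes absent family, went from 5.14 to 2.96 (-2.18, FDR 0.000125). Sites annotated to Rad23b (-2.08), 4930548J01Rik (-2.07), Cavin2 (-1.99), Mir28b (-1.98), Noct (-1.96), Col5a2 (-1.95), Fbn2 (-1.94), Setbp1 (-1.93) and Mir710 (-1.87) completed the 12 largest decreases. Among these 12, the Noct site lay closest to a start, 3413 bp upstream.

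The lowest p-value belonged to the site with the strongest control signal. At chr2:118127383-118128711, just past the transcript end of Thbs1, which encodes the matricellular protein thrombospondin 1, the level went from 10.2 to 8.60 (-1.60, FDR 2.29e-10). A site upstream of Cald1, the gene of the actin-binding protein caldesmon, went from 6.90 to 5.08 (-1.81, FDR 9.88e-09). The Col5a2 site, upstream of a fibrillar collagen gene, went from 6.97 to 5.02 (FDR 2.32e-09). Sites annotated to Alkal1 (-1.80), Gm5627 (-1.55), Ccn1 (-1.56) and Mir710 were also among the 8 lowest p-values.

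The 12 higher sites had log2 differences of 1.01 to 1.28, and 0 of them lay in a promoter, beside 1.06% of all listed sites. Adam12, a membrane metalloprotease gene, held 2 of them in introns, at 1.08 (4.39 to 5.47) and 1.01 (5.88 to 6.89). The intron site annotated to Sned1, a matrix glycoprotein gene, lay 24020 bp upstream of the start of that gene. It had the most signal of the 12, from 7.16 to 8.30 (1.14, FDR 0.000228). The others were annotated to Zranb3 (1.28), 4930503F20Rik (1.23), Phactr1 (1.16), Snx19 (1.16), Efemp1 (1.16), Morrbid (1.09), Cdkal1 (1.07), Pik3cg (1.04) and Capzb (1.02).

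Genes of the Hippo and Yap/Taz system had several sites. Of 14882 genes tested in the RNA, 661 (4.44%) had any listed site, and 99.0% of listed sites were lower, so the direction of a list's sites says little about its members. Of 31 Yap/Taz target genes in the list used, 10 had a listed site, 24 sites in all. Ccn1, a secreted matricellular protein and classic Yap target, had 7 sites. At 4 of them, which span 1321 bp from chr3:145645334 to 145646654 just past the gene, the difference was -1.39 to -1.56, and the widest went from 8.75 to 7.35. The other 3 Ccn1 sites lay further off and had -1.19, -1.20 and -1.36. Its relative Ccn2 had 4 sites within 3361 bp, 116044 to 119187 bp upstream of its start, at -1.05 to -1.33. Single sites of Nuak2, a kinase, and Lats2, the Hippo kinase that restrains Yap, had -1.09 and -1.13.

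Of 33 Hippo pathway genes, 9 had a site, 11 sites in all. Amotl2, Frmd6 and Lats2 are among them and also among the Yap/Taz targets counted above. The angiomotins hold Yap in the cytoplasm. Amotl2 had a site 18101 bp upstream at -1.66 (6.73 to 5.07). Another 6 sites were annotated to the long non-coding RNA gene Gm5627, and Amotl2 was the nearest protein-coding gene body in RefSeq at each, 971 to 44733 bp away. The 6 had -1.02 to -1.55, and the one nearest to Amotl2 went from 8.98 to 7.43. Amot had an intron site at -1.22 and Tead3, a TEAD factor, an intron site at -1.26 (8.02 to 6.75). Vgll3, a TEAD cofactor, had 3 sites at -1.04, -1.09 and -1.12, and Vgll4, a TEAD repressor, 1 at -1.03. The cadherin-like Fat1 and Fat4 had sites at -1.02 and -1.01, the former 450670 bp and the latter 638710 bp from the start.

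Genes of the actin cytoskeleton also had sites. Of 47 actin and SRF target genes, 13 had a site, 16 sites in all. Beside Cald1 they included Tpm4, a tropomyosin, in an intron at -1.66 (7.42 to 5.75), and Actn4, which cross-links actin, in introns at -1.57 and -1.23. Acta2, smooth muscle actin, had a site 10500 bp upstream at -1.12 (7.65 to 6.53). Rock2, the gene of a kinase that Y27632 inhibits, had a site at -1.03. Cnn2, Flna, Rnd3, Pdlim5, Myh10, Diaph3, Fhl1 and Tagln held the rest. Of 38 focal adhesion and integrin genes, 2 had a site, Nedd9 (-1.34) and Lims1 (-1), beside 4.44% of all genes tested in the RNA.

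Among matrix genes, sites lay near a few members. Of 47 structural matrix genes, 5 had a site: Fbn2 (-1.94) and Col5a2 (-1.95), named above, and Col11a1 (-1.59), Sparc (-1.24) and Fbln5 (-1.13). Of 46 genes of matrix degradation and its inhibitors, 4 had a site, 12 sites in all. Adamts5, an aggrecan-cleaving protease, and Adamts6 had 5 sites each, at -1.03 to -1.49 and -1.08 to -1.45. Adamts15 (-1.09) had 1. Of 43 TGF-beta and BMP genes 3 had a site, among them Ltbp2 (-1.24) and Smurf1 (-1.14). Of 41 Wnt genes 6 had a site, Axin2, Fzd1, Fzd8, Ror1, Rspo2 and Tcf7l2, at -1.06 to -1.16. Of 22 AP-1 and immediate early genes 3 had a site, Jun (-1.60), Fos (-1.12) and Klf2 (-1.32), all intergenic. Of 17 tendon identity genes 1 had a site, Six2 (-1), beside 4.44% of all genes tested in the RNA.

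**Figure D2:**
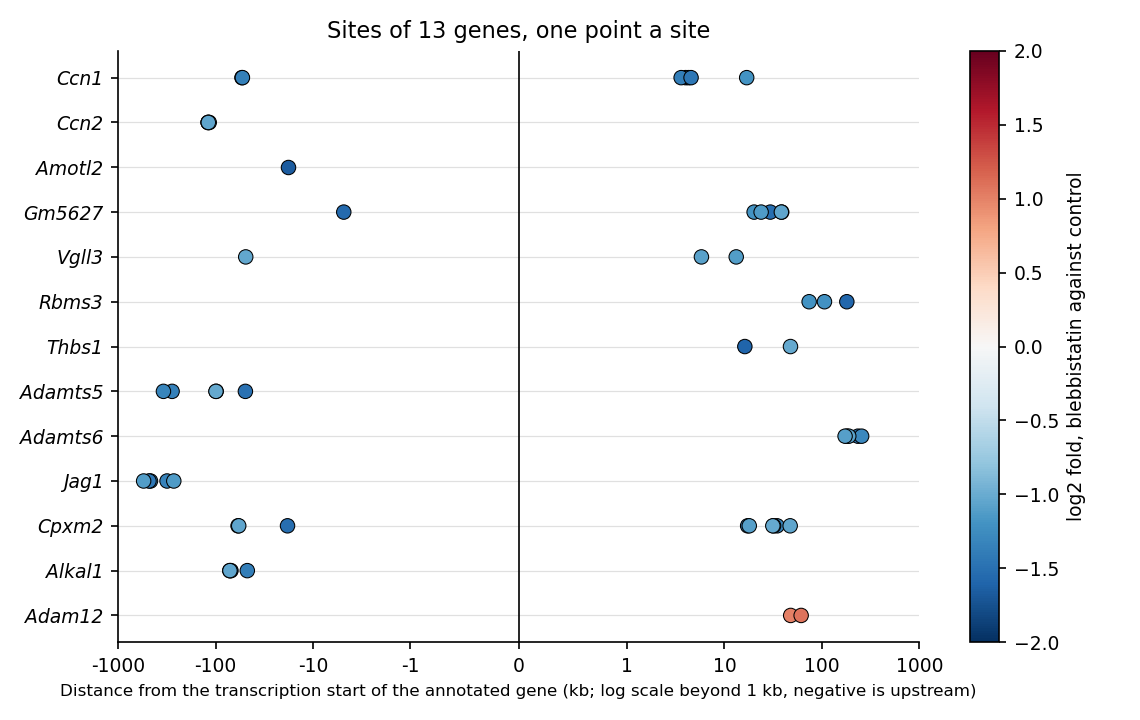
Sites of 13 genes by their distance from the start of the annotated gene (x axis, kb, log scale beyond 1 kb) and coloured by the authors' log2 difference. Every site of the first 12 genes is lower with blebbistatin, and both sites of Adam12 are higher. None of the points lies within 1 kb of a start.

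Sites gathered at some genes. The 1231 sites were annotated to 995 genes, of which 833 had 1 site, 162 at least 2 and 8 at least 5. Cpxm2, which encodes a carboxypeptidase-like protein, had the most, 9 sites over 106 kb in and upstream of the gene at -1.02 to -1.52. After it came Ccn1 with 7, Gm5627 and Gm13985 with 6, and Adamts5, Adamts6, Jag1 and Mnd1-ps with 5. The 5 sites of Jag1, a Notch ligand, lay 268149 to 546844 bp upstream at -1.12 to -1.44. Sites no more than 10 kb apart formed 77 clusters of 2 or more, with 173 sites, and 0 clusters mixed lower and higher sites. With 12 higher sites among the 1231, few clusters could be mixed. Of the 5 Mnd1-ps sites, a pseudogene, 3 lay in introns of Fhit.

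All 13 promoter sites were lower, by 1 to 1.49 on the log2 scale, as were 99.0% of all listed sites. Tagln, the gene of the actin-binding protein transgelin, had its site 45 bp from the start and went from 8.03 to 6.74 (-1.29, FDR 7.92e-05). Radil, which encodes a Rap effector in cell adhesion, went from 7.87 to 6.66 (-1.20). Lurap1l went from 6.88 to 5.83 (-1.05), and Fhl1, a LIM protein of the actin cytoskeleton, from 5.81 to 4.52 (-1.29). Cacul1 had 2 sites (-1.03 and -1.49), and Spz1, Gpr141, Oxnad1, Rasgrp3, Rhobtb3 and Tbrg3 had 1 each (-1 to -1.35).
In the sequences above, the CArG boxes of Lurap1l and Fhl1 and all 3 marked words of Radil lie inside the listed sites.

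The list was set beside the ATAC table of blebbistatin against DMSO, which comes from other libraries and shares none with it. At least 1 bp was shared by 351 listed sites (28.5% of this list) and 347 sites of that table (35.8% of it). Lower sites were 1.52% and higher sites 0.0271% of those tested there. Of the 351, 350 were lower in both, the Adam12 site at 1.08 was higher in both (1.51 in the ATAC table), and 0 went opposite ways. At the 350 sites the ATAC difference was larger by a median of 0.39, and 325 (92.9%) fell further there. The smallest absolute difference in the ATAC table was 1.24 against 1 here, so the selection of each table shapes this comparison. The differences of the 350 sites correlated weakly (Pearson r 0.357, n = 350 sites, a description since sites share libraries).

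Overlap with the ATAC table was also counted by the strength of the site, and differences between these classes of sites were not tested. Of the 141 lower sites at -1.5 or beyond, 68 (48.2%) overlapped it, against 282 of 1078 weaker ones (26.2%). Of the first 100 sites by p, 64% overlapped. The overlapping sites also had more control signal (median 6.42 against 6.02) and were wider (median 298.5 against 233 bp), and the part of signal and width in this was not tested. The 8 sites with the largest decreases summed over both tables were Col5a2 (-1.95 here and -2.56 in ATAC), Cavin2 (-1.99 and -2.45), Nt5c1b (-1.84 and -2.52), Mir710 (-1.87 and -2.38), Cald1 (-1.81 and -2.11), Gm11351 (-1.52 and -2.40), Olfr1423 (-1.76 and -2.16) and Dpp4 (-2.21 and -1.69).

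In the ATAC table of Y27632, 91 listed sites (7.39% of this list and 44.0% of that table's 207) appeared, where lower sites were 0.285% and higher sites 0.0502% of those tested. Of these, 90 were lower in both and the Sned1 site was higher in both (1.37 with Y27632). The Tagln promoter site had -1.78 there, Col5a2 -1.84 and Mir710 -2.05.

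In cells given doxycycline, 408 of the listed sites (33.1%) overlapped the table of blebbistatin, and all 408 were lower in both. They matched 399 sites of that table, 6.29% of its 6346, and lower sites were 8.73% and higher sites 0.0193% of those tested there. Compared site by site, the decrease with doxycycline was smaller by a median of 0.07, and 147 of 408 (36%) fell further with doxycycline. Mir710 had -1.81, Rad23b -1.80, Adamts5 up to -1.72 and Dpp4 -1.36 there. Of the 1231 sites, 115 appeared in both this table and the ATAC blebbistatin table, 29 also in the Y27632 table, and 581 in none of the 3.

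**Figure D3:**
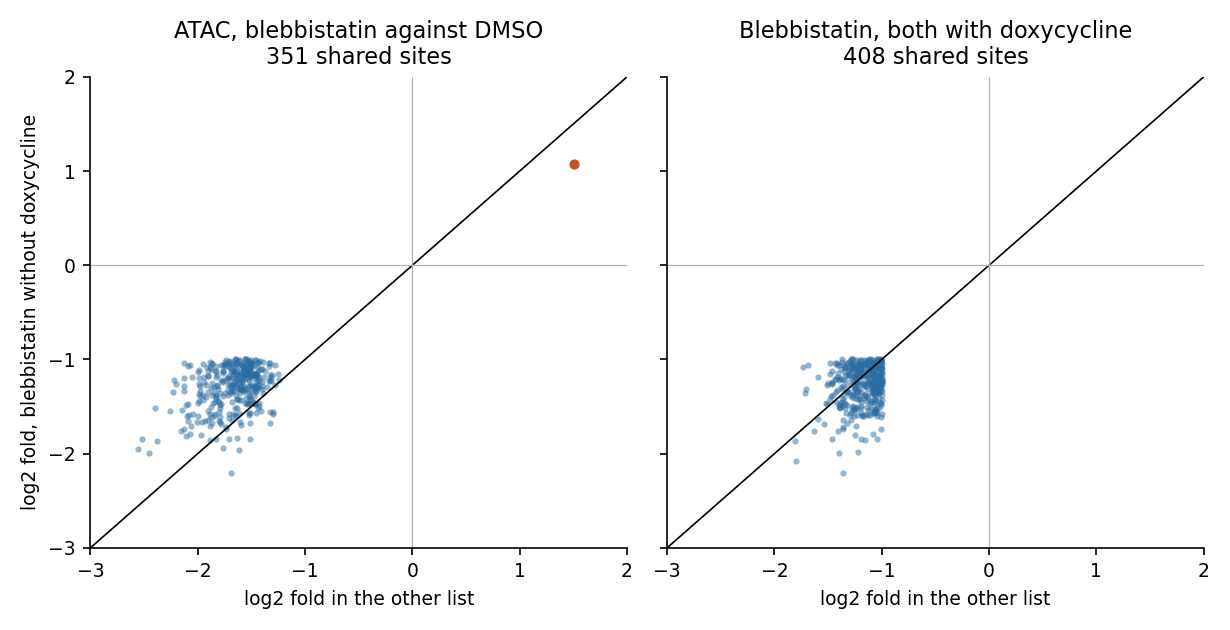
Log2 differences at listed sites (y axis) against the differences at overlapping sites of the ATAC table of blebbistatin (left, 351 sites) and the table of blebbistatin with doxycycline (right, 408 sites). Points left of the diagonal fell further in the other table; 0 points lie in the quadrants of opposite direction.

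The table of doxycycline without blebbistatin uses the same control group, so its values are only placed beside these. It lists 9.36% of the sites tested in it, and 8.97% as higher with doxycycline. With doxycycline the Setbp1 site had a log2 difference of 1.77, the Col5a2 site 1.59 and the Myh10 site 1.43, where blebbistatin gave -1.93, -1.95 and -1.21. The header of that table names its reference column for another group. At 13 intervals with the same start and end, that column differed from the control level used here by -0.128 on average (SD 0.00439), and from the level with blebbistatin by 1.12.

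The TEAD letters could be read at the overlapping ATAC sites. Of the 347, 246 (70.9%) had a TEAD match and 101 (29.1%) had 2 or more, against 357 (57.3%) and 99 (15.9%) of the other 623 sites of that table. The overlapping ATAC sites were wider (median 294 against 243 bp) and of like GC content (44.5% against 44.9%), and the part of width was not tested. Of the matches, 219 of 367 (59.7%) at overlapping sites held the full GGAATG, against 317 of 470 (67.4%) elsewhere. Within the list, the 250 lower sites with a match had a median difference of -1.26 and the 100 without one -1.24. The Mir710 site and the Nt5c1b site had 3 matches each, while the Cald1, Tpm4 and Rock2 sites had 0.

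The RNA libraries of DMSO and blebbistatin, 3 in each group with 23375386 to 31326871 reads in genes, are other libraries than those of the sites and so test the annotated genes separately. Values are the authors' normalised counts, compared with limma on log2(value + 1), and adjusted p-values run over the 14882 genes with a mean of at least 10. The median change of all these genes was 0.002. All 10 fibroblast and all 8 tendon markers used to check the label had a mean of at least 10 in the DMSO libraries, and 1 of 8 skeletal muscle markers did. The same held for all 8 macrophage, 5 of 6 Schwann and 4 of 7 endothelial markers. It also held for 3 of 6 chondrocyte and 3 of 6 pericyte and smooth muscle markers. Among keratinocyte markers 2 of 7 passed, and among adipocyte markers 1 of 5. This threshold therefore does not set fibroblasts apart from all other cells, macrophages among them. The summed level of 8 macrophage markers was 6279 to 6900 in DMSO and 8843 to 9966 in blebbistatin libraries. Lyz2 made up most of it (4325 to 4737 and 6238 to 6928). Cd14 and Fcer1g overlapped between the groups, and the other macrophage markers were higher in each blebbistatin library. The Schwann sums overlapped (726 to 810 and 787 to 838), with Mbp lower and Sox10, S100b and Ngfr higher in each blebbistatin library. The summed level of 7 endothelial markers was 3196 to 3279 and 2072 to 2332, with Pecam1, Emcn and Tie1 under 10 in each DMSO library. Tek alone carried the lower endothelial sum (3084 to 3135 and 1900 to 2133), while Cdh5 (58.6 to 72.8 and 76.9 to 88.0), Kdr (9.93 to 17.7 and 18.7 to 25.7) and Vwf (29.9 to 57.6 and 65.4 to 80.9) were higher in each blebbistatin library. The sum of 6 pericyte and smooth muscle markers was 346 to 404 and 460 to 497, with Notch3 higher (230 to 292 and 365 to 400) and Rgs5 lower (80.5 to 117 and 60.0 to 69.8). The chondrocyte sum was 165 to 202 and 241 to 255, with Acan at 0 in DMSO libraries. Sox9 made up most of this sum (126 to 155 and 185 to 213), while Col2a1 and Hapln1 overlapped between the groups. The skeletal muscle sum was 38.7 to 51.7 and 22.1 to 36.2, with the actin gene Acta1 at 26.5 to 34.5 and 8.27 to 23.9. Other cells' part in the results was not tested, and in bulk libraries fewer cells of a type and less RNA per cell cannot be told apart.

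Of the genes annotated only to lower sites, more were called lower in the RNA than higher. Of the 995 genes, 986 were in the RNA table and 975 had only lower sites, of which 651 passed the filter on low values. Of those 651, 337 (51.8%) were called lower and 130 (20%) higher by limma at an adjusted p under 0.05, beside 26.9% lower and 26.1% higher among all genes tested (53% in either direction). The median change was -0.21. By at least 1 on the log2 scale, 94 were lower and 24 higher, 14.4% and 3.69%, beside 2.94% and 3.64% of all genes.

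The lower share was larger the nearer the site. Where the nearest lower site was within 10 kb of the start, 91 of 136 genes (66.9%) were lower and 18 (13.2%) higher, with 31 lower and 0 higher by at least 1. From 10 to 50 kb it was 51.4% lower and 19.5% higher, from 50 to 100 kb 47.5% and 22.0%, and beyond 100 kb 41.8% and 25.3%. By number of sites, 267 of 540 genes with 1 site were lower (49.4%), 49 of 83 with 2 (59.0%) and 21 of 28 with 3 or more (75%). Genes with a site shared with the ATAC table were lower in 120 of 196 (61.2%), the others in 217 of 455 (47.7%). Differences between these classes of genes were not tested.

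**Figure D4:**
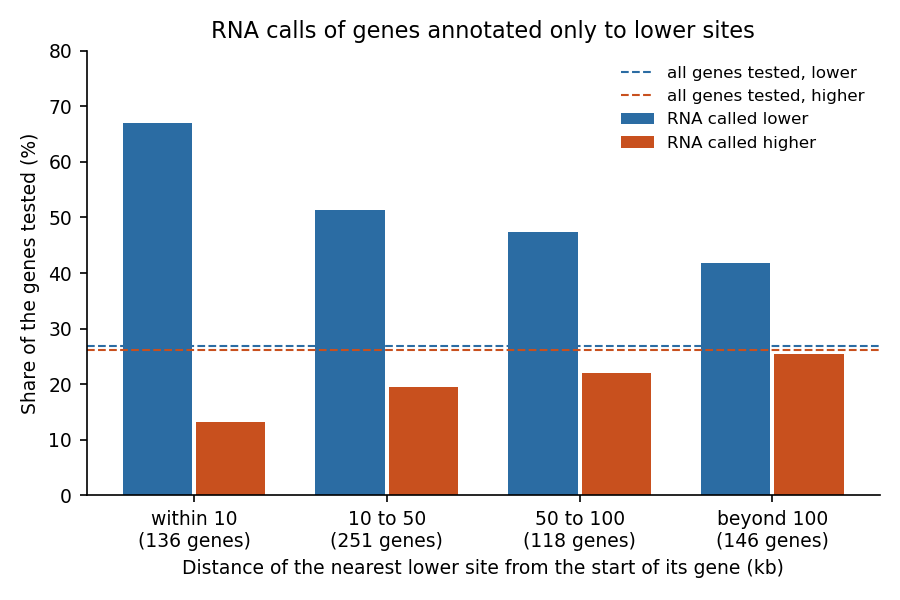
Share of genes annotated only to lower sites whose RNA was called lower or higher by limma (y axis, percent of genes tested), by the distance of the nearest lower site from the start. Dashed lines give the shares among all genes tested; the lower share falls from 66.9% within 10 kb to 41.8% beyond 100 kb.

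All 10 Yap/Taz target genes with a site were called lower in the RNA, with a median change of -1.33; in the whole list 24 of 31 were lower and 4 higher. Ccn1, listed as Cyr61 in the RNA table, had 9898, 10690 and 10942 normalised counts in DMSO and 2346, 2666 and 2818 in blebbistatin libraries, a log2 change of -2.01 ± 0.06 (SE; limma adjusted p 7.3e-11). Ccn2, listed as Ctgf, had 3137, 3400 and 3823 against 934, 1238 and 1252 (-1.60 ± 0.10). The groups did not overlap for either gene.

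Amotl2 had 21420, 21635 and 21423 in DMSO and 4321, 4822 and 4652 in blebbistatin libraries (-2.23 ± 0.04, limma adjusted p 1.59e-12). Gm5627, to which most sites around Amotl2 were annotated, was listed at 0 to 7.94 counts and was not tested. Thbs1 had 246916, 265062 and 251542 against 46605, 53697 and 54287 (-2.31 ± 0.05). Nuak2 (-1.98) and F3 (-0.37), the gene of tissue factor, fell too, as did Dlc1 (-0.72), Rbms3 (-1.05) and Frmd6 (-0.66). Each of these genes was lower in all 3 treated libraries than in any control library.

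Of the 9 Hippo genes with a site, 8 were called lower and 1 higher, beside 17 and 11 of all 33. Amotl2, Frmd6 and Lats2 are counted both here and among the Yap/Taz targets, so the counts of these lists are not separate. Vgll3 had 16120, 16875 and 16221 in DMSO and 5880, 5983 and 5974 in blebbistatin libraries (-1.46 ± 0.03). Tead3 (-1.16), Amot (-1.15), Fat1 (-1.37), Fat4 (-1.13) and Lats2 (-0.80) also fell. Vgll4 was the exception, with 935, 924 and 928 against 1449, 1450 and 1545 (0.67 ± 0.04, limma adjusted p 6.56e-08), while its site was lower.

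In the actin and SRF list, 12 genes with a site passed the filter, and 11 were called lower, beside 35 lower and 3 higher of 46 in the whole list. Acta2 had 4048, 4010 and 4322 in DMSO and 2043, 1935 and 2349 in blebbistatin libraries (-0.97 ± 0.06). Rock2 (-1.79), Cnn2 (-1.41), Rnd3 (-1.51), Tpm4 (-0.84) and Cald1 (-0.65) also fell. Myh10, a heavy chain of the motor that blebbistatin blocks, was not called (0.10 ± 0.05, limma adjusted p 0.0927; 0.0385 without DMSO replicate 1), and its site was lower. Both focal adhesion genes with a site, Nedd9 (-1.11) and Lims1 (-0.50), were called lower, beside 20 lower and 8 higher of 38 in the list.

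The 5 structural matrix genes with a site were all called lower, beside 20 lower and 15 higher of 47 in the list. Col5a2 had 248410, 254041 and 243089 in DMSO and 177208, 183392 and 172682 in blebbistatin libraries (-0.48 ± 0.04). Sparc, at -0.19 ± 0.03, changed least and Fbn2, at 12 to 28 counts, by -0.84 ± 0.26; the Fbn2 call was lost with DESeq2 (adjusted p 0.102) and without DMSO replicate 2 or 3 (limma adjusted p 0.0605 and 0.0506).

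Proteases went different ways. Adamts5 had 34852, 36966 and 34422 in DMSO and 10239, 10108 and 10397 in blebbistatin libraries (-1.79 ± 0.03). Adamts15, a related aggrecan-cleaving protease, had 66.5, 90.5 and 80.4 against 963, 838 and 948 (3.53 ± 0.11, limma adjusted p 1.1e-10), and its site, 125925 bp from the start, was lower. Adamts6, with 5 lower sites, had -0.16 ± 0.06 (limma adjusted p 0.0303). DESeq2 did not call it (adjusted p 0.147), and nor did limma with the replicate block (0.0546) or without blebbistatin replicate 1 or 2 (0.0824 and 0.0719) or DMSO replicate 2 or 3 (0.100 and 0.0529). In the whole degradation list 12 of 44 genes tested were lower and 23 higher.

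RNA calls were mixed in the other lists. Jun (0.69 ± 0.06) and Fos (0.44 ± 0.12) were called higher and Klf2 (-0.82 ± 0.10) lower, each with 1 lower site. In the whole AP-1 and immediate early list 7 of 22 were lower and 9 higher. Of the TGF-beta and BMP genes with a site, Ltbp2 (0.01) and Smurf1 (-0.03) were not called, beside 21 lower and 13 higher of 42. Of the Wnt genes with a site, 4 were lower, led by Ror1 (-1.72), a Wnt receptor kinase, Axin2 rose (1.08) and Fzd1 (0.06) was not called, beside 15 lower and 8 higher of 34. Six2 was not called (0.21), and 5 of the 17 tendon identity genes were lower and 7 higher.

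Cpxm2, the gene with the most sites, was not called in the RNA. With 9 lower sites it had 1307, 1317 and 1393 in DMSO and 1440, 1515 and 1363 in blebbistatin libraries, and the groups overlapped (0.10 ± 0.05, limma adjusted p 0.0917; 0.0349 without blebbistatin replicate 3). Jag1, with 5 far sites, had 729, 796 and 669 against 329, 339 and 359 (-1.09 ± 0.07). Alkal1, which encodes a ligand of the kinases ALK and LTK and is listed as Fam150a, had 4 lower sites and was listed at 6.62 to 8.04 counts in DMSO and at 0 in every blebbistatin library, under the filter and so not tested.

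**Figure D5:**
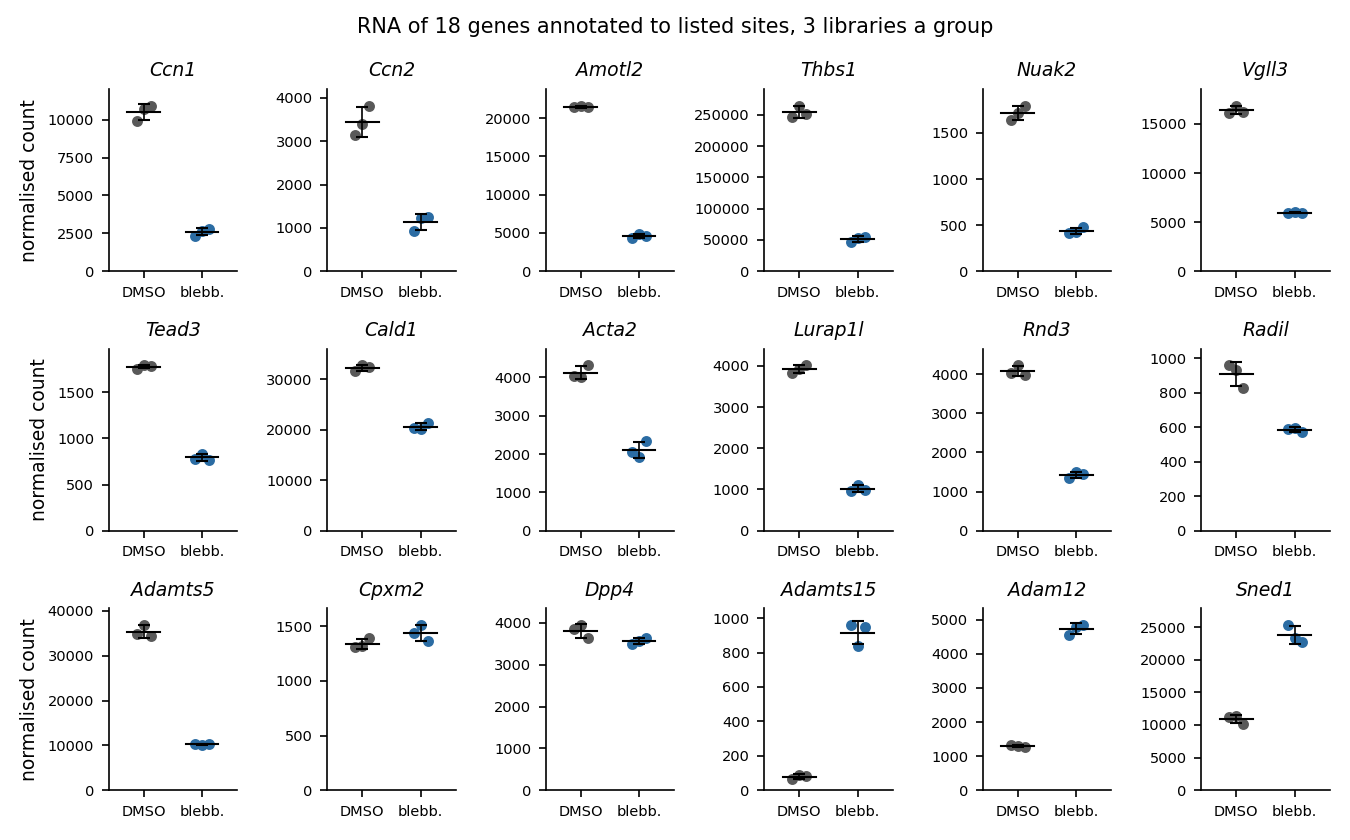
Normalised RNA counts of 18 genes annotated to listed sites (y axes start at 0), each point a library, the bar the mean and the whiskers the SD of 3 libraries. Genes of the top row lie lower with blebbistatin without overlap; Cpxm2 and Dpp4 overlap, and Adamts15, Adam12 and Sned1 lie higher.

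Of the genes at the 12 largest decreases, Cavin2, listed as Sdpr and a gene of caveolae, fell (-1.07), as did Noct (-0.86), a phosphatase of dinucleotide cofactors, and Rad23b (-0.33). Eya4 rose, with 396, 458 and 384 in DMSO and 839, 765 and 923 in blebbistatin libraries (1.03 ± 0.08), and Setbp1 rose by 0.26. Dpp4 had 3845, 3962 and 3635 against 3509, 3575 and 3645, which overlap (-0.09 ± 0.04, limma adjusted p 0.0581; 0.0124 without DMSO replicate 3). Nmur2, 4930548J01Rik, Mir28b and Mir710 were listed at 0 in all 6 libraries.

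Promoter sites went with RNA changes of different size. Lurap1l had 3820, 3924 and 4020 in DMSO and 966, 1117 and 981 in blebbistatin libraries (-1.94 ± 0.05). Rasgrp3 (-1.02), Radil (-0.63), Rhobtb3 (-0.47) and Oxnad1 (-0.35) also fell. Fhl1 had -0.11 ± 0.03 (limma adjusted p 0.0198), a call lost with DESeq2 (adjusted p 0.0540) and without DMSO replicate 1 or 2 or blebbistatin replicate 1 (0.0528, 0.0580 and 0.0884). Cacul1 rose by 0.22. Tagln was listed at 3.12 to 13.8 counts and, like Spz1, Gpr141 and Tbrg3, was not tested.

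Among genes with only lower sites, 411 were called, had a mean of at least 100 and had groups that did not overlap, 301 lower and 110 higher. These were 46.2% and 16.9% of the 651 tested, beside 23.8% and 21% of all genes tested under the same rule. The 10 largest decreases included Thbs1 and Amotl2, named above, and Ptx3, a secreted pentraxin (-2.86), Npr3, a natriuretic peptide clearance receptor (-2.60), Adra1d, an adrenergic receptor (-2.41), F2rl1, a protease-activated receptor (-2.30), Fgf5 (-2.23) and Cdh6, a cadherin (-2.07). The 10 largest increases, after Adamts15, were Myo1e, an unconventional myosin (1.97), Pde7b, a phosphodiesterase (1.62), Ppfibp2 (1.45), Trabd2b (1.25), Plxna4, a semaphorin receptor (1.20), Antxr1, a collagen-binding receptor (1.15), Axin2, Txndc16 (1.05) and Eya4.

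Of the 8 genes with only higher sites, 7 were tested, with 4 called higher and 3 lower. Among all genes tested, 26.1% were called higher and 26.9% lower, and 7 genes are too few to compare with these shares. Adam12 had 1330, 1309 and 1280 in DMSO and 4567, 4794 and 4862 in blebbistatin libraries (1.86 ± 0.04, limma adjusted p 3.85e-12). Sned1 had 11255, 11331 and 10149 against 25375, 23328 and 22712 (1.13 ± 0.05). Capzb, an actin capping protein gene, rose by 0.35, and Zranb3 had 0.34 ± 0.11, called by limma (adjusted p 0.0197) but not by DESeq2 (adjusted p 0.0661) nor without blebbistatin replicate 1 or DMSO replicate 2 or 3 (limma adjusted p 0.0697, 0.0835 and 0.0569). Morrbid, listed as Gm14005 (-0.75), and Efemp1 (-0.14) fell. Pik3cg had -0.50 ± 0.15 (limma adjusted p 0.0124; 0.0610 without DMSO replicate 3). Phactr1, Snx19 and Cdkal1 had sites of both directions, with changes of 0.93, -0.45 and 0.06.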

How the data were processed

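Site values are the authors' deposited log2 group means and log2 differences, p-values and FDR per interval; the tables hold no single libraries, so no test was run on sites. HOMER annotations came with them, in mm10, and the ATAC table as deposited gives each site's GC content as a fraction. The submitters' processing notes name Bowtie2, MACS2, DiffBind and HOMER, and HISAT2, featureCounts and DESeq2, with no versions. RNA values are the authors' deposited normalised counts, as a signal divided by size factors; whole reads came back for 100% of values within 0.01 read. Levels between genes are not corrected for length. RNA was tested with limma 3.58.1 (R 4.3.3) with a trend on log2(value + 1), mean at least 10, adjusted p under 0.05 (Benjamini-Hochberg), two-sided. edgeR 4.0.16 and DESeq2 1.42.0 on recovered reads were alternatives. The limma script was tested on simulated data. Overlap meant at least 1 bp. RNA names were matched to RefSeq gene IDs (93.1% matched).

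Sites and genes named are all higher sites, the 12 largest decreases, the 8 lowest p, the 5 smallest differences with ties given to the larger p, the 8 largest summed differences shared with ATAC, all promoter sites, genes with at least 5 sites, list members, and the 10 largest RNA changes each way. The members and lists were chosen with earlier results of these data known. The motif search over whole sites was not run, as no genome was used here. Promoter windows run from 250 bases before to 50 after a start. A few genes that the naming rule selects are not reported here.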

Additional observations from a re-analysis of the deposited data

How the results depend on the processing

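With sites at an FDR of at most 0.01, 766 sites were lower with a median difference of -1.23, and 231 of 429 genes were called lower and 73 higher. At an absolute log2 difference of at least 1.5, the sites were 141 lower, with a median of -1.60, a promoter share of 0, 68 ATAC overlaps, and 53 genes lower and 14 higher. These settings keep fewer sites by construction, as do links within 50 kb (220 genes lower, 67 higher) and 10 kb (91 and 18). Leaving out single RNA libraries gave 313 to 332 lower and 118 to 124 higher. Other tests, filters and pseudocounts gave 309 to 346 and 112 to 131. Linking sites to the nearest protein-coding gene body, an alternative chosen after seeing the data, gave 402 of 763 lower and 154 higher. Same-numbered RNA libraries did not deviate together (correlations -0.061, 0.022 and 0.013); with the replicate block 328 genes were lower and 127 higher. Of 90 named genes called, 84 kept their call in every RNA alternative run. Only uncalled genes changed sign, when single libraries were left out: Fhit (-0.42 without blebbistatin replicate 2 to 0.10 without replicate 1), Ltbp2 (-0.0092 without blebbistatin replicate 3 to 0.024 without replicate 2) and Satb1 (-0.039 without DMSO replicate 3 to 0.053 without DMSO replicate 2, and 0.0081 without blebbistatin replicate 2). A TEAD search over the listed sites and its alternatives were not run. Site tables give no depth, so no precision can be set for a site, and RNA under a mean of 10 was not tested.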

Other observations

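The densest stretches of listed sites were counted after seeing the data, as runs of up to 1 Mb. The densest held 16 sites over 698 kb at chr2:117461706-118159675, from Rasgrp1 to Thbs1, all lower (-1 to -1.62), and 6 of them were annotated to Gm13985, a gene listed at 2.47 to 12.1 RNA counts. The next held 11 sites over 967 kb around Ccn1, and 10 sites over 367 kb around Amotl2 and Gm5627. Stretches of 9 sites held Adamts6 and Cpxm2, and 8 lay around Adamts5. None of these 6 stretches held a higher site, of which the whole list has 12. RNA of Thbs1, Ccn1, Amotl2 and Adamts5 was lower with blebbistatin, while Cpxm2 was not called. Adamts6 changed by -0.16, a call lost in several of the alternatives.

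Near the higher site annotated to 4930503F20Rik, the nearest protein-coding gene body was Gdf10, a growth factor gene of the TGF-beta family, 101956 bp away. Its RNA was 20.9, 21.0 and 28.7 normalised counts in DMSO and 266, 304 and 250 in blebbistatin libraries (3.5 ± 0.16 SE, limma adjusted p 2.74e-09). Near the higher site annotated to Morrbid, a long non-coding RNA gene, lay Bcl2l11, the gene of the cell death protein Bim, 176655 bp away, with 848, 846 and 801 against 1668, 1644 and 1797 (1.03 ± 0.05, limma adjusted p 3.48e-09). Cpe, the gene of a carboxypeptidase, had its body 9233 bp from the lower Mir710 site, and its RNA was 5863, 5923 and 5894 in DMSO and 8632, 8660 and 8631 in blebbistatin libraries (0.55 ± 0.03, limma adjusted p 6.91e-09). These 3 genes were chosen after their values were seen.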
